A study of Mus musculus with 16 samples.

Results

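The markers described here are 10 genes that define the DPP4-positive interstitial progenitors of subcutaneous white fat: Dpp4, Pi16, Cd55, Cd34, Clec3b, Pcolce2, Anxa3, Il13ra1, Sema3c and Wnt2. They were chosen by symbol from the 27179 entries of a table of normalized counts, and all 10 were found. The table comes from RNA sequencing of cultured PDGFRb+ stromal cells of inguinal white fat of C57BL/6 mice, sorted by flow cytometry and divided into DPP4_neg and DPP4_pos adipose progenitor cells (APCs). Each population was treated for 4 h with PBS as vehicle or with isoproterenol, a synthetic drug that stimulates beta-adrenergic receptors, which gives 4 groups of 4 libraries: DPP4_neg vehicle, DPP4_neg isoproterenol, DPP4_pos vehicle and DPP4_pos isoproterenol. All groups were grown in medium with 10% fetal bovine serum before treatment. The labels give the dose of isoproterenol as 10 mM, a high dose for cultured cells, and a mistaken unit was not tested. No genetic change is named for these mice, their age is not given, and the labels do not say whether the 4 libraries of a group came from separate animals or cultures. The p-values below therefore describe only how far these libraries vary, and that variation may be technical.

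Fat depots hold several kinds of fibroblast-like progenitor. In subcutaneous fat, DPP4-positive cells lie in the fibrous interstitium between fat lobules, keep a multipotent state, and can give rise to committed preadipocytes that have lost DPP4. Noradrenaline released from sympathetic nerves in the cold acts on beta-adrenergic receptors, which raise cyclic AMP and activate transcription factors of the CREB family that bind the cAMP response element. The 10 markers fall into surface proteins and receptors (Dpp4, Cd34, Cd55 and Il13ra1), secreted proteins (Pi16, Clec3b, Pcolce2, Sema3c and Wnt2) and the calcium- and lipid-binding protein Anxa3.

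The sequence before the start site of the marker that rose most in DPP4_pos cells, Cd55, is shown because it holds a short form of the cAMP response element, and that of Il13ra1, which also rose, is shown as a sequence without it. Both are the 250 bases upstream of a RefSeq start site in GRCm38.p6, written 5′ to 3′ on the strand of the gene, and capitals mark the letters TGACG. The Cd55 window is chr1:130462745-130462994 on the minus strand and lies within the span of the gene, for which RefSeq also has a start site further upstream. The Il13ra1 window is chrX:36111858-36112107 on the plus strand.
Cd55: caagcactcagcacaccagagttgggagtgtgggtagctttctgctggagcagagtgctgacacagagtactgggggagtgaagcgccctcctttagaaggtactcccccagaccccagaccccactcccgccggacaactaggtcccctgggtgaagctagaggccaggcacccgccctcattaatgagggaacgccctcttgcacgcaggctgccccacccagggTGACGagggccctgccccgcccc
Il13ra1: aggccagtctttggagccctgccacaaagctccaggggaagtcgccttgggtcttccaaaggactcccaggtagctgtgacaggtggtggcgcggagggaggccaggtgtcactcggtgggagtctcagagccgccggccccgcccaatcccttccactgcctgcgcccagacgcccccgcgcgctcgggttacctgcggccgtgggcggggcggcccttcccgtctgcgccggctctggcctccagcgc
The 5 capital letters lie 23 to 19 bases before the start site of Cd55. Windows were found for 8 of the 10 markers. The short form TGACG (or CGTCA, the same letters on the other strand) was in the window of 1 of these 8, Cd55, and in 17.8% of the 32851 windows of the table. The full element TGACGTCA, which contains both short forms, was in the window of none of the 8 and in 1.55% of all windows. A match of letters is a description and not a binding site.

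Libraries held 9823799 to 28627223 reads in genes. Within groups, library pairs had r = 0.986 to 0.995 across genes, and in a chi-square test on reads all of them varied beyond sampling, so none was treated as a copy. The sort gene Pdgfrb averaged 11315 and 9028 normalized counts in DPP4_neg and 7562 and 2105 in DPP4_pos cells, vehicle first. It fell by 0.33 ± 0.05 and by 1.85 ± 0.05 on the log2 scale, and the responses differed by -1.52 ± 0.07 (adjusted p = 2.40e-14). Pdgfra, a further receptor of stromal cells, fell by 0.33 ± 0.04 and by 1.66 ± 0.04. These falls accompany the treatment comparisons below, and their part in them was not tested. The 5 cAMP response genes examined as a check (Nr4a1, Fosb, Crem, Sik1 and Pde4d) rose in both populations, as did 25.9% of all genes tested. The rise was larger in DPP4_pos cells for 4 of them and smaller for Fosb (difference of responses -0.82). The 6 mural markers summed to 101812 to 111989 normalized counts in DPP4_neg and to 6424 to 7521 in DPP4_pos libraries with vehicle, and to 71146 to 76819 and 4407 to 5317 with isoproterenol. Most of this was Acta2, smooth muscle actin, at means of 99429 and 6126 under vehicle. Acta2, Myh11 and Abcc9 were lower in DPP4_pos cells under both treatments, whereas Rgs5, Cspg4 and Kcnj8 were not called under vehicle (-0.48 ± 0.33, -0.38 ± 0.19 and 0.41 ± 0.21; the first 2 were called lower with quantile scaling), and Kcnj8 and Rgs5 were higher in DPP4_pos cells under isoproterenol (0.80 ± 0.21 and 1.29 ± 0.33). Rgs5 reached the filter through the DPP4_pos libraries alone, so its higher value under isoproterenol is not independent of the filter. It rests on 46 reads in DPP4_neg and 76 in DPP4_pos isoproterenol libraries. The part of the cells of these mural genes in the differences between populations was not tested. Epithelial markers were low, summing to 105.3 at most. For the 5 mesothelial markers, DPP4_neg sums ranged from 623 to 783 normalized counts with vehicle and from 1227 to 1717 with drug, and DPP4_pos sums from 118 to 172 and from 124 to 190. Most of this was the keratin gene Krt19, which averaged 677 and 1451 in DPP4_neg and 103 and 154 in DPP4_pos cells, vehicle first. The defining genes Msln and Upk3b had 0 to 5 reads per group. Wt1, the only other mesothelial gene tested, was higher in DPP4_pos vehicle libraries and fell with isoproterenol in DPP4_pos cells, opposite to Krt19 in both. It reached the filter through the DPP4_pos libraries alone. The part of mesothelial cells in the values below was not tested.

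All 10 markers passed the filter on low values, a normalized count of at least 10 in at least 4 libraries, as did 14005 genes in all. Pi16 passed through the other 3 groups, since 1 of the 4 DPP4_neg vehicle libraries reached 10, and its group there held 45 reads in all. Differences are given as log2 of the normalized count + 1, ± the standard error, from limma fitted across all 16 libraries with Benjamini-Hochberg adjustment over the 14005 genes, and a gene is called changed at an adjusted p under 0.05. This scale understates the change of low genes. Counts scaled by library show the share of a gene in the RNA of a culture, so fewer cells of a type and less RNA per cell cannot be told apart.

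**Figure D1:**
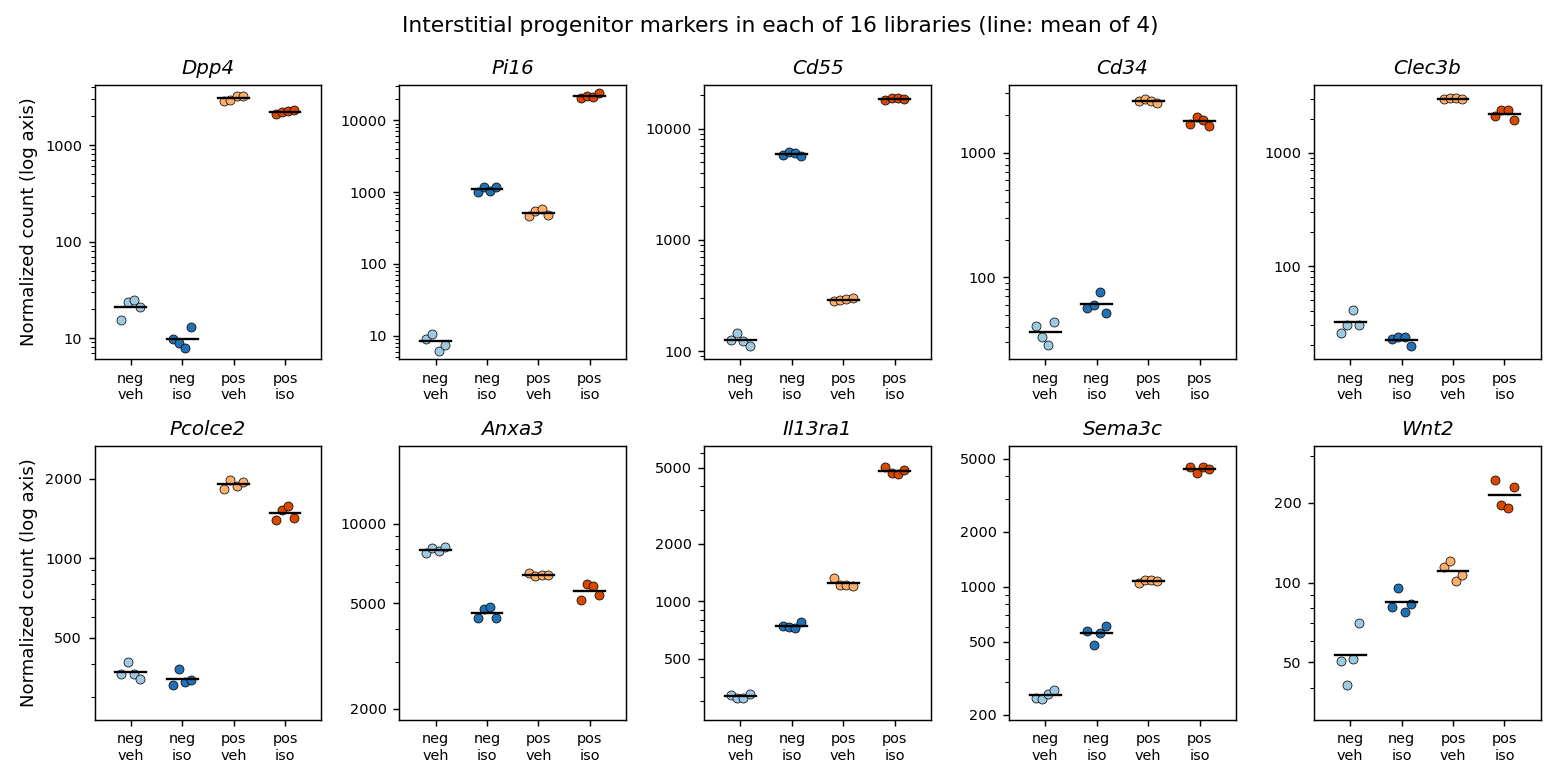
Normalized count of each marker (log axis, a separate scale per gene) in each of the 16 libraries, with DPP4_neg in blue and DPP4_pos in orange, vehicle light and isoproterenol dark, and a line at the mean of 4. In Dpp4, Cd34, Clec3b, Pcolce2, Il13ra1, Sema3c and Wnt2 the DPP4_pos groups stand above both DPP4_neg groups. In Pi16 and Cd55 the isoproterenol groups move far from vehicle in both populations, and Anxa3 is highest in DPP4_neg vehicle.

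Dpp4 encodes dipeptidyl peptidase 4, a surface enzyme that removes dipeptides from the ends of peptide hormones and chemokines, and it is the protein on which the cells were sorted, so its difference between populations is given as a description. In the order of replicates 1 to 4, its normalized counts were 15.3, 23.4, 24.6 and 21.0 in DPP4_neg vehicle and 2853, 2937, 3227 and 3194 in DPP4_pos vehicle libraries. With isoproterenol they were 9.72, 8.81, 7.89 and 13.1 in DPP4_neg and 2104, 2187, 2274 and 2326 in DPP4_pos libraries. No 2 of the 4 groups overlapped, and the DPP4_neg level was 0.690% of the DPP4_pos level under vehicle. The gene lies on chromosome 2 from 62330073 to 62412315 on the minus strand (GRCm38.p6, as all positions here). Isoproterenol lowered Dpp4 in both populations, by 1.02 ± 0.13 on the log2 scale in DPP4_neg (adjusted p = 4.12e-07) and by 0.46 ± 0.13 in DPP4_pos cells (adjusted p = 0.00257). The DPP4_neg change rests on 119 reads with vehicle and 39 with isoproterenol over each group. The responses differed by 0.56 ± 0.18 (adjusted p = 0.0102), a difference that was not called when libraries were scaled to the total of reads in genes (0.31, adjusted p = 0.141) or by quantiles (0.10, adjusted p = 0.687).

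Cd34, a sialomucin of the surface of stem cells, fibroblasts and endothelium, had 40.4, 33.1, 28.6 and 43.3 normalized counts in DPP4_neg vehicle and 2613, 2702, 2629 and 2527 in DPP4_pos vehicle libraries. With isoproterenol it had 56.7, 60.2, 75.7 and 51.2 in DPP4_neg and 1713, 1923, 1852 and 1657 in DPP4_pos libraries. The treated libraries lay above all vehicle libraries in DPP4_neg and below all of them in DPP4_pos cells. Cd34 rose by 0.73 ± 0.11 in DPP4_neg (adjusted p = 4.90e-06) and fell by 0.55 ± 0.11 on the log2 scale in DPP4_pos cells (adjusted p = 9.38e-05). The responses differed by -1.29 ± 0.16 (adjusted p = 3.16e-07). Cd34 was the 1 marker called in opposite directions in the populations, as were 6.37% of the genes tested, and 2.71% rose in DPP4_neg and fell in DPP4_pos cells. Its mean was 29.3-fold higher in DPP4_pos than in DPP4_neg isoproterenol libraries (72.0-fold under vehicle). The defining endothelial genes Pecam1 and Cdh5, which share cells with Cd34 in blood vessels, averaged 9.13 and 3.91 normalized counts in DPP4_neg vehicle and 12.5 and 10.7 in DPP4_neg isoproterenol libraries. In DPP4_pos cells they averaged 34.7 and 37.1 with vehicle and 50.6 and 57.5 with isoproterenol. Both thus averaged higher in DPP4_pos cells, as Cd34 did, but in these cells Cd34 fell with isoproterenol while their averages went up. That rise was called only with quantile scaling. Cdh5 reached the filter through the DPP4_pos libraries alone, so its higher value there is not independent of the filter. The sum of the 6 endothelial markers went from 73.0 to 82.4 up to 202 to 268 in DPP4_neg and from 170 to 247 up to 906 to 995 in DPP4_pos cells with treatment, most of it Kdr, which averaged 121 and 684 in the treated groups. The part of such cells in the Cd34 values was not tested. Cd34 lies on chromosome 1 from 194938821 to 194961292 on the plus strand.

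Cd55 encodes decay-accelerating factor, a lipid-anchored surface protein that protects cells from complement. Its normalized counts were 127.3, 145.1, 124.9 and 111.0 in DPP4_neg vehicle and 282.3, 291.3, 292.3 and 299.9 in DPP4_pos vehicle libraries. With isoproterenol they were 5801, 6107, 6037 and 5653 in DPP4_neg and 18040, 18846, 18971 and 18622 in DPP4_pos libraries. Both treated groups stood far above both vehicle groups, with no overlap anywhere. The ratio of means was 46.4 in DPP4_neg and 63.9 in DPP4_pos cells, log2 differences of 5.53 ± 0.05 (adjusted p = 5.20e-26) and 5.99 ± 0.05 (adjusted p = 5.15e-27). These ranked 30th and 33rd from the highest of the 14005 genes. The response was larger in DPP4_pos cells by 0.46 ± 0.08 (adjusted p = 2.29e-05), but by 0.20 with scaling to the total (adjusted p = 0.0264) and by 0.12, not called, with quantile scaling (adjusted p = 0.182). Cd55 lies on chromosome 1 from 130429798 to 130465009 on the minus strand, and 9.12% of its 50-base stretches also occur in Cd55b or in Gm16083 on the opposite strand. Cd55b itself had between 4 and 48 reads per group.

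Il13ra1 encodes a receptor chain that binds interleukin-13 and pairs with the interleukin-4 receptor. Its normalized counts were 323, 311, 313 and 328 in DPP4_neg vehicle, 743, 732, 724 and 776 in DPP4_neg isoproterenol, 1322, 1210, 1209 and 1206 in DPP4_pos vehicle, and 5014, 4694, 4647 and 4863 in DPP4_pos isoproterenol libraries. The groups formed 4 separate steps in that order. The response was 2.33-fold in DPP4_neg (log2 difference 1.22 ± 0.04, adjusted p = 6.14e-17) and 3.88-fold in DPP4_pos cells (1.96 ± 0.04, adjusted p = 6.73e-21). The difference between the responses was 0.74 ± 0.06 (adjusted p = 3.64e-10), and it stayed called at 0.48 with scaling to the total and at 0.32 with quantile scaling. Il13ra1 lies on chromosome X from 36112108 to 36171262 on the plus strand. Macrophages also carry this receptor. The 8 macrophage and leukocyte markers summed to 353 to 838, 686 to 1505, 469 to 835 and 471 to 1052 normalized counts in the 4 groups in the same order, with the lymphocyte gene Cd3e at 1 to 2 reads per group, and their part in the Il13ra1 values was not tested.

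Among the secreted proteins, Pi16, a peptidase inhibitor that marks universal fibroblasts of many organs, changed most. It had 9.15, 10.7, 6.16 and 7.44 normalized counts in DPP4_neg vehicle and 468, 544, 581 and 477 in DPP4_pos vehicle libraries. With isoproterenol it had 1020, 1175, 1041 and 1162 in DPP4_neg and 20292, 21497, 21308 and 23946 in DPP4_pos libraries. The treated DPP4_neg libraries lay above every vehicle library of DPP4_pos cells. The ratio of means was 131 in DPP4_neg (log2 difference 6.90 ± 0.11, adjusted p = 1.01e-22) and 42.0 in DPP4_pos cells (5.39 ± 0.11, adjusted p = 3.02e-21), ranks 8 and 57 from the highest of 14005 genes. The log2 response was smaller in DPP4_pos cells, with a difference of -1.5 ± 0.15 (adjusted p = 2.01e-08). In normalized counts the rise was the larger in DPP4_pos cells, from 517.5 to 21761 against 8.37 to 1099. Pi16 lies on chromosome 17 from 29318796 to 29328903 on the plus strand.

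Sema3c, a secreted semaphorin that guides growing axons and vessels, had 247, 243, 259 and 274 normalized counts in DPP4_neg vehicle and 575, 479, 558 and 606 in DPP4_neg isoproterenol libraries. In DPP4_pos cells it had 1047, 1091, 1088 and 1076 with vehicle and 4532, 4188, 4527 and 4376 with isoproterenol. As with Il13ra1, the 4 groups did not overlap and stood in the order DPP4_neg vehicle, DPP4_neg isoproterenol, DPP4_pos vehicle and DPP4_pos isoproterenol. Sema3c rose by 1.11 ± 0.06 (adjusted p = 1.46e-13) in DPP4_neg and by 2.03 ± 0.06 (adjusted p = 1.27e-18) in DPP4_pos cells, and the responses differed by 0.92 ± 0.08 (adjusted p = 2.24e-09; 0.53 with quantile scaling, still called). Sema3c lies on chromosome 5 from 17574816 to 17730268 on the plus strand.

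Wnt2, a secreted ligand of Frizzled receptors, was low, between 40.9 and 70.4 normalized counts in DPP4_neg vehicle, 77.3 and 95.4 in DPP4_neg isoproterenol, 101 and 120 in DPP4_pos vehicle, and 191 and 244 in DPP4_pos isoproterenol libraries. It followed the same order of groups without overlap. Its response was 0.67 ± 0.13 (adjusted p = 1.39e-04) in DPP4_neg and 0.95 ± 0.13 (adjusted p = 1.00e-06) in DPP4_pos cells. The difference between the responses, 0.28 ± 0.19, was not called (adjusted p = 0.203), although quantile scaling gave a called difference of 0.46 (adjusted p = 0.0381) and scaling to the total gave 0.02. Without replicate 4 of DPP4_neg vehicle, the highest of its group at 70.4, the difference was 0.14. Wnt2 lies on chromosome 6 from 17985474 to 18032772 on the minus strand.

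Clec3b encodes tetranectin, a plasminogen-binding protein of plasma and matrix. It had 25.9, 30.2, 40.9 and 30.5 normalized counts in DPP4_neg vehicle, 22.7, 23.5, 23.7 and 19.7 in DPP4_neg isoproterenol, 2953, 3019, 3048 and 2950 in DPP4_pos vehicle, and 2104, 2399, 2389 and 1939 in DPP4_pos isoproterenol libraries. The populations stood about as far apart with treatment (98.7-fold) as without it (93.9-fold). Under vehicle the DPP4_neg levels of Dpp4, Clec3b, Cd34 and Pi16 were 0.690%, 1.06%, 1.39% and 1.62% of the DPP4_pos levels. The purity of the sort was not tested. Clec3b fell by 0.48 ± 0.10 (adjusted p = 3.20e-04) in DPP4_neg and by 0.44 ± 0.10 on the log2 scale (adjusted p = 4.19e-04) in DPP4_pos cells. The DPP4_neg change rests on 34, 31, 73 and 45 reads with vehicle and 28, 32, 15 and 15 with isoproterenol. The responses differed by 0.03 ± 0.14 (adjusted p = 0.862), a value near 0 whose sign changed under several settings, and which was called at -0.48 with quantile scaling (adjusted p = 0.00503). Clec3b lies on chromosome 9 from 123150946 to 123157432 on the plus strand.

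Pcolce2, which enhances the trimming of procollagens into collagens, had 366, 406, 365 and 350 normalized counts in DPP4_neg vehicle and 331, 380, 341 and 345 in DPP4_neg isoproterenol libraries, which overlap. In DPP4_pos cells it had 1837, 1976, 1886 and 1939 with vehicle and 1400, 1528, 1584 and 1421 with isoproterenol, which do not. It was not called in DPP4_neg cells (-0.09 ± 0.05, adjusted p = 0.156), except without replicate 2 of the treated group (-0.13, adjusted p = 0.0357), and it fell by 0.37 ± 0.05 on the log2 scale in DPP4_pos cells (adjusted p = 2.24e-06). The difference of -0.28 ± 0.08 between the responses was called (adjusted p = 0.00346) and was -0.54 with scaling to the total. Pcolce2 lies on chromosome 9 from 95637628 to 95695551 on the plus strand.

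Anxa3, an annexin that binds phospholipids in the presence of calcium, was the marker that least followed the sort. It had 7739, 8071, 7861 and 8169 normalized counts in DPP4_neg vehicle and 6507, 6346, 6409 and 6405 in DPP4_pos vehicle libraries, so it was higher in the DPP4_neg cells. With isoproterenol it had 4384, 4741, 4843 and 4412 in DPP4_neg and 5137, 5922, 5805 and 5372 in DPP4_pos libraries, so the populations stood in the opposite order on the deposited scaling. Anxa3 fell by 0.79 ± 0.04 (adjusted p = 2.49e-13) in DPP4_neg and by 0.21 ± 0.04 on the log2 scale (adjusted p = 1.04e-04) in DPP4_pos cells. The size of the fall in DPP4_pos cells depended on the scaling, -0.48 with the total and -0.71 with quantiles. The responses differed by 0.58 ± 0.06 (adjusted p = 2.40e-08; 0.32 with the total and 0.15 with quantiles, both called). Anxa3 lies on chromosome 5 from 96793385 to 96845968 on the plus strand and overlaps Gm42603 on the same strand, and the other partly overlapped markers, by genes on the opposite strand, are Dpp4, Pi16, Cd55 and Cd34. Whether the library kit kept strand is not stated, so reads of such pairs cannot be told apart.

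The question of the treatment comparison is how each population responds to an adrenergic signal. In DPP4_neg cells 6 of the 10 markers rose, 3 fell and 1 was not called, beside 65.7% of all genes called (32.1% higher and 33.6% lower). The median difference of the markers was 0.70, against -0.02 for all genes tested. In DPP4_pos cells 5 rose and 5 fell, beside 82.7% of all genes called (39.4% higher and 43.3% lower), with a median of 0.37 against -0.05. With so many genes called, the shares of markers called are near or somewhat above the background. Libraries of treated and vehicle groups did not overlap for 9 markers in DPP4_neg cells (58.9% of all genes) and for 10 in DPP4_pos cells (77.8% of all genes). Pi16, Cd55, Il13ra1, Sema3c and Wnt2 rose in both populations, as did 25.9% of genes, and Dpp4, Clec3b and Anxa3 fell in both, as did 26.4% of genes. These 8 of 10 markers thus changed in the same direction in both populations, beside 52.3% of genes. The responses of the populations differed for 8 of the 10 markers, 5 of them with a higher and 3 with a lower value in DPP4_pos cells, beside 62.6% of all genes called (31.6% higher and 31% lower). Scaling to the total of reads in genes moved the median of all genes from -0.05 to -0.33 in DPP4_pos cells and from -0.02 to -0.28 in the difference of responses. The share of called genes that were higher then went from 47.6% to 33% and from 50.5% to 27.2%. Under that scaling the falls in DPP4_pos cells were larger, at -0.73 for Dpp4, -0.72 for Clec3b and -0.64 for Pcolce2, and the same markers rose and fell.

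**Figure D2:**
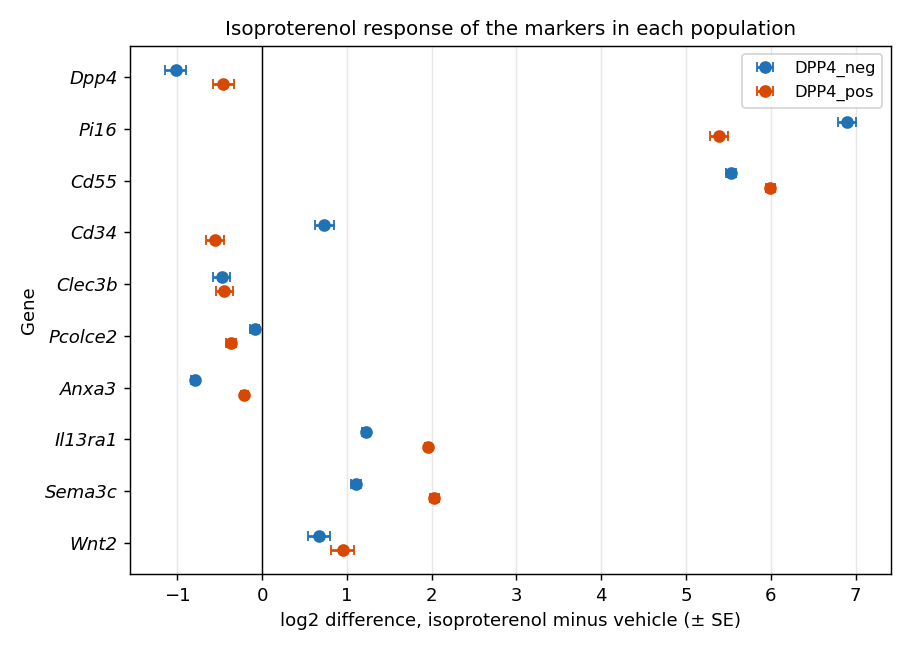
Isoproterenol response of each marker (log2 difference of normalized count + 1, isoproterenol minus vehicle, ± SE, 4 libraries per group) in DPP4_neg (blue) and DPP4_pos (orange) cells. Pi16 and Cd55 lie between 5.39 and 6.90 in both populations, Il13ra1, Sema3c and Wnt2 rose less, and Cd34 lies on opposite sides of 0.

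The comparison of the populations asks how far the markers follow the sort. Because the markers were chosen with earlier results of these data known, the counts are a description and no independent evidence on the sort. Under vehicle, 8 of the 9 markers other than Dpp4 were higher in DPP4_pos cells and 1, Anxa3, was lower, beside 66.6% of all genes called (31.6% higher and 35% lower). Under isoproterenol all 9 were higher, beside 74.4% of all genes called (37.4% higher and 37% lower). With scaling to the total, the share of called genes that were higher under isoproterenol went from 50.3% to 34.4%. For Anxa3 that higher value (0.27 ± 0.04, adjusted p = 4.88e-06) was not called with scaling to the total (0.08, adjusted p = 0.106) or with quantile scaling (0.00, adjusted p = 0.932). The libraries of the populations did not overlap for any of the 9 under either treatment (67.3% of genes under vehicle and 63.9% under isoproterenol). The log2 differences under vehicle fell into a high set, with Clec3b at 6.53 ± 0.10, Cd34 at 6.15 ± 0.11 and Pi16 at 5.81 ± 0.11, and a lower set, with Pcolce2 at 2.36 ± 0.05, Sema3c at 2.07 ± 0.06, Il13ra1 at 1.95 ± 0.04, Cd55 at 1.20 ± 0.05 and Wnt2 at 1.06 ± 0.13. Clec3b, Cd34 and Pi16 ranked 4th, 8th and 11th from the highest of the 14005 genes, and Dpp4, at 7.13 and as the sort marker, the 2nd. With isoproterenol the difference was 2.99 ± 0.06 for Sema3c and 2.69 ± 0.04 for Il13ra1, and it was 4.31 ± 0.11 for Pi16 and 4.86 ± 0.11 for Cd34. The comparisons share their groups with the responses above, so these values restate the differences between responses.

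**Figure D3:**
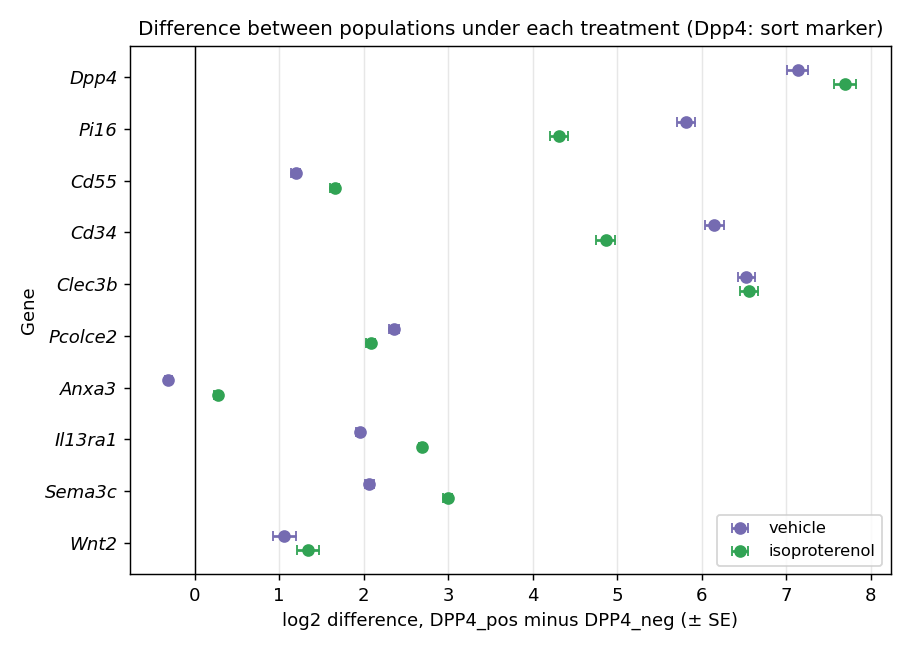
Difference between populations (log2 difference of normalized count + 1, DPP4_pos minus DPP4_neg, ± SE, 4 libraries per group) under vehicle (purple) and isoproterenol (green). Dpp4, as the sort marker, is shown as a description, and Anxa3 is the marker below 0 under vehicle (-0.31, and -0.15 with quantile scaling). Its value above 0 under isoproterenol was not called with quantile or total scaling.

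Because some markers rose in DPP4_neg cells, their treated level was set beside that of untreated DPP4_pos cells, a comparison added after the levels were seen. Pi16 was 2.12-fold and Cd55 20.2-fold higher in DPP4_neg isoproterenol than in DPP4_pos vehicle libraries (log2 differences of 1.09 ± 0.11 with adjusted p = 5.73e-09, and 4.33 ± 0.05 with adjusted p = 2.30e-24). The other 7 markers tested were lower, beside 77% of all genes called (38.7% higher and 38.2% lower). Wnt2 reached 76.0%, Il13ra1 60.1% and Sema3c 51.6% of the untreated DPP4_pos level. Anxa3, which fell in DPP4_neg cells, went from 124% of that level with vehicle to 71.6% with isoproterenol. Pcolce2 was at 18.3%, Cd34 at 2.33% and Clec3b at 0.748%. For Wnt2 the difference of -0.39 ± 0.13 (adjusted p = 0.0107) was not called with quantile scaling (-0.11, adjusted p = 0.467). Dpp4 was at 0.324%, as a description.

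Per kilobase of exon, the markers also changed their order among themselves. In DPP4_pos vehicle libraries Clec3b was highest at 3017 normalized counts per kilobase, followed by Anxa3 at 1761 and Dpp4 at 483, and Pi16 at 81.3, Cd55 at 60.1 and Wnt2 at 49.1 were lowest. In DPP4_pos isoproterenol libraries Cd55 at 3837 and Pi16 at 3419 per kilobase stood above Clec3b at 2226. In DPP4_neg cells Anxa3 was highest under both treatments, at 2185 per kilobase with vehicle and 1261 with isoproterenol, the latter beside Cd55 at 1216. The lowest in DPP4_neg cells was Pi16 with vehicle (1.32) and Dpp4 with isoproterenol (1.56).

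The genes whose pattern over the 16 libraries was most like that of a marker were found by the root mean square difference of log2 values, each centred on the gene's mean, among 11400 genes averaging 50 normalized counts or more. Il13ra1 and Sema3c were each other's nearest gene, at 0.14, where Il13ra1 itself varied by 1.42 around its mean. Cd55 was nearest to Star (0.18), Procr (0.40) and Gng4 (0.48), and Pi16 to Il33 (0.49), Krt23 (0.77) and Nptx1 (0.80). Clec3b was nearest to Saa3 (0.34), Ace (0.42) and Dpp4 (0.52), Cd34 to Mmp3 (0.35), Ccl8 (0.37) and Ace (0.47), and Dpp4 to Clec3b, Saa3 (0.75) and Ace (0.82). Pcolce2 was nearest to Gm10554 (0.12), Adamtsl1 (0.13) and Lum (0.15), Anxa3 to Trim24 and Klf6 (0.10 each), and Wnt2 to Srpx, Cyp51 and Elovl6 (0.19 to 0.21). Anxa3 and Wnt2 themselves varied by only 0.295 and 0.749 around their means, against 2.97 for Cd55 and 4.00 for Pi16. A small distance for Anxa3 or Wnt2 is therefore not a closer match than a larger one for Cd55 or Pi16. The libraries fall into 4 groups, so these values mostly compare 4 levels per gene.

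A list of 24 other markers of interstitial progenitors, 23 of them tested, was compared in the same way. This list and those below were chosen with earlier results of these data known, so their counts describe the lists and are no independent evidence on the sort. Bmp7, Dact2, Efhd1 and Opcml reached the filter through the DPP4_pos libraries alone, so they could only count as higher there. Under vehicle, 23 of 23 were higher in DPP4_pos cells, beside 31.6% of all genes, with a median difference of 1.404 against -0.01 for all genes, the same with Bmp7 at its bound. Among the 19 that reached the filter in each population taken alone, 19 were higher, with a median of 1.19. With quantile scaling 21 were higher, and Fn1 and Has1 were not called. Bmp7, a bone morphogenetic protein, had no reads in DPP4_neg vehicle libraries and 89.9 ± 6.93 normalized counts in DPP4_pos vehicle libraries, at least 161-fold higher against a floor of 3 reads over the group. With isoproterenol, 21 were higher in DPP4_pos cells, 1, Cd248, was lower (-0.86 ± 0.05) and 1, Fbn1, was not called, beside 37.4% of all genes higher and 37% lower. Scaling to the total and quantile scaling each gave 19 higher and 2 lower. Among the 19 that reached the filter in each population, 17 were higher and 1 lower. Cd248, the fibroblast surface protein endosialin, fell by 0.31 ± 0.05 on the log2 scale in DPP4_neg and by 1.90 ± 0.05 in DPP4_pos cells. In response to isoproterenol, 14 of 23 rose, 8 fell and 1 was not called in DPP4_neg cells, and 11 rose, 6 fell and 6 were not called in DPP4_pos cells, where scaling to the total gave 11 rising and 11 falling. Of all genes, 32.1% rose and 33.6% fell in DPP4_neg and 39.4% rose and 43.3% fell in DPP4_pos cells, so the share rising in DPP4_pos cells is near that of all genes. The 14 include Bmp7, Efhd1 and Dact2, which rest on 0, 16 and 21 reads in the DPP4_neg vehicle and 7, 73 and 35 in the treated group. Without the 4 genes that passed through DPP4_pos libraries, 11 of 19 rose and 8 fell in DPP4_neg and 9 rose and 6 fell in DPP4_pos cells. The medians of the 23 were 0.51 and 0.09, against -0.02 and -0.05 for all genes, and that in DPP4_pos cells was -0.18 with scaling to the total and 0.465 with quantile scaling.

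Of these, Il33, an alarmin cytokine of stromal nuclei, was closest to Pi16, with 34.4 ± 2.73 and 1897 ± 90.3 normalized counts in DPP4_neg and 1893 ± 137 and 64967 ± 1446 in DPP4_pos vehicle and isoproterenol libraries. Between the DPP4_neg isoproterenol and DPP4_pos vehicle groups no difference in Il33 was called (0.00 ± 0.05, adjusted p = 0.942). Has1, a hyaluronan synthase, rose by 6.63 ± 0.21 in DPP4_neg and 8.49 ± 0.21 in DPP4_pos cells, Gfpt2, an enzyme of the hexosamine pathway, by 4.92 ± 0.04 and 4.99 ± 0.04, and Ugdh, which makes the UDP-glucuronic acid used for hyaluronan, by 2.82 ± 0.03 and 3.60 ± 0.03. Ackr3, a scavenging chemokine receptor, rose by 3.14 ± 0.08 and 3.13 ± 0.08. These risers do not stand for the whole list, since 8 of the 23 fell in DPP4_neg and 6 in DPP4_pos cells. Among genes averaging at least 50 normalized counts, the largest falls were those of Limch1 in DPP4_neg (-2.31) and Smpd3 in DPP4_pos cells (-1.96). Creb5, a transcription factor of the CREB and ATF family, fell by 1.21 ± 0.11 on the log2 scale in DPP4_neg and rose by 0.90 ± 0.11 in DPP4_pos cells, and the difference of 2.11 ± 0.15 was called (adjusted p = 1.31e-10).

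**Figure D4:**
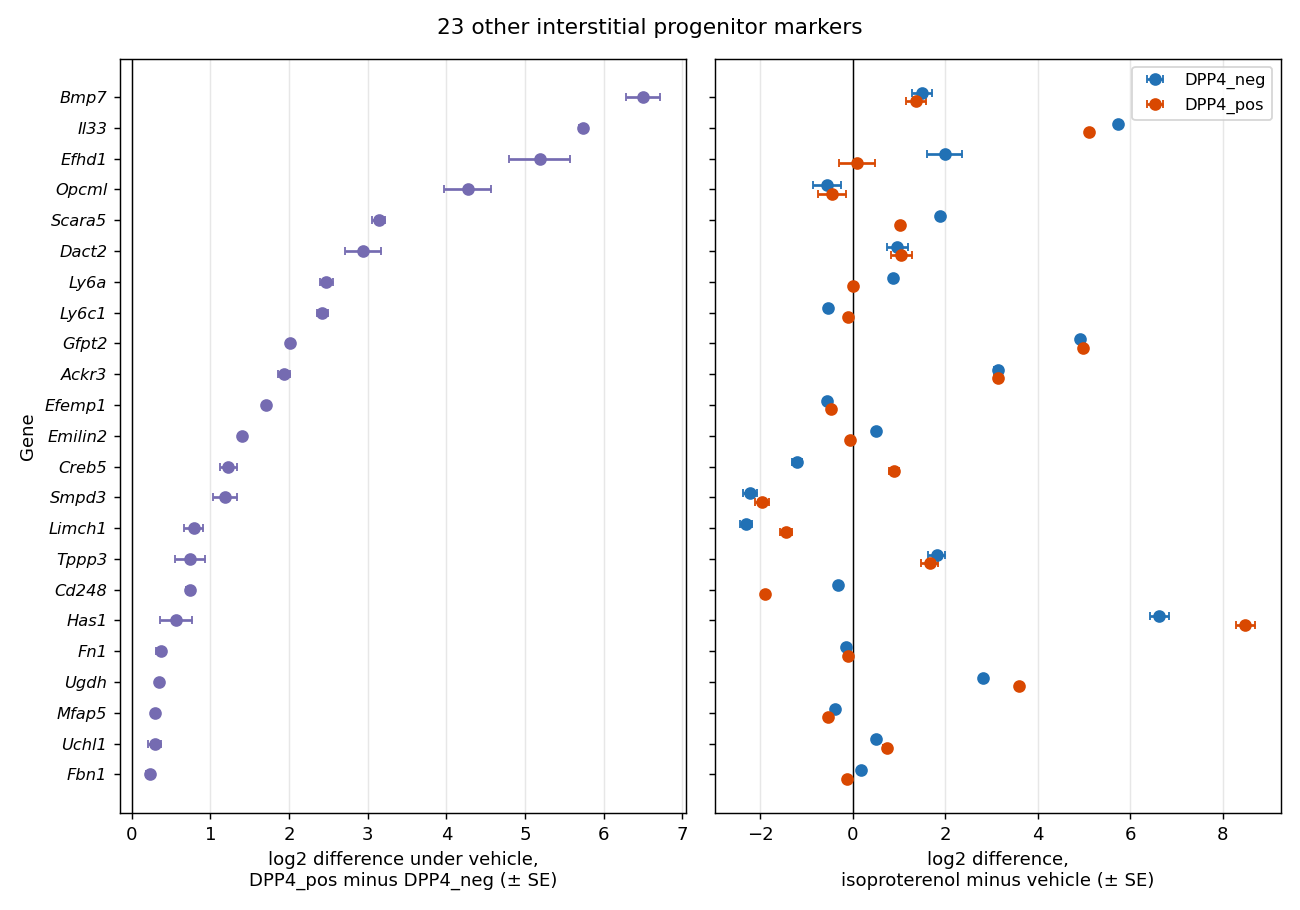
The 23 other interstitial progenitor markers tested, with the difference between populations under vehicle on the left (log2, DPP4_pos minus DPP4_neg, ± SE) and the isoproterenol response in DPP4_neg (blue) and DPP4_pos (orange) cells on the right. All lie above 0 on the left, while on the right they spread from 8.49 for Has1 in DPP4_pos to -2.31 for Limch1 in DPP4_neg cells. The fitted Bmp7 value depends on the pseudocount, since it had no reads in DPP4_neg vehicle libraries.

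Among 24 partners and relatives of the markers, 23 tested, 8 rose, 11 fell and 4 were not called in DPP4_neg cells, and 9 rose, 11 fell and 3 were not called in DPP4_pos cells (7 rose and 15 fell with scaling to the total). These shares are near the 32.1% rising and 33.6% falling in DPP4_neg and the 39.4% and 43.3% in DPP4_pos cells among all genes. The medians were -0.12 and -0.08, against -0.02 and -0.05 for all genes. The receptor chains for interleukin-4 and interleukin-13 rose with Il13ra1. Il4ra rose by 0.62 ± 0.03 in DPP4_neg and 1.08 ± 0.03 in DPP4_pos cells, and Il13ra2, a decoy receptor, rose by 1.45 ± 0.20 and 1.80 ± 0.20, from 6.95 and 58.6 normalized counts. Of the 4 semaphorin receptors in the list, which bind Sema3c or its relatives, 4 fell in both populations, as did 26.4% of all genes, and some partners in the list were chosen after their values were seen. Nrp2 fell by 1.89 ± 0.06 in DPP4_neg and by 2.49 ± 0.06 on the log2 scale in DPP4_pos cells, Plxnd1 fell by 1.05 ± 0.05 and by 2.06 ± 0.05, and Nrp1 fell by 0.22 ± 0.05 and by 0.75 ± 0.05. Plxna2 fell by 0.35 ± 0.08 and by 0.23 ± 0.08, the latter not called with quantile scaling. Fzd1, a Frizzled receptor for Wnt ligands, rose by 1.75 ± 0.05 and 1.72 ± 0.05. Crispld2, a secreted CRISP-domain relative of Pi16, rose by 2.66 ± 0.04 and 2.12 ± 0.04, and Anxa1 fell by 1.37 ± 0.04 and by 1.68 ± 0.04. Of the peptidase relatives of Dpp4, Fap was higher by 2.62 ± 0.07 and Dpp7 by 1.72 ± 0.07 in DPP4_pos vehicle libraries. These do not stand for all the relatives listed, which also include Dpp8 and Dpp9. Dpp9 was not called in that comparison on the deposited scaling, and with scaling to the total it was higher by 0.098 (limma, adjusted p = 0.0429). Pcolce, the relative of Pcolce2, was higher by 1.13 ± 0.04. Cd59a, a further complement inhibitor, was lower in DPP4_pos vehicle libraries (-1.26 ± 0.10). It does not stand for all complement genes listed, which include Cr1l and Cd46. With vehicle, Cr1l ranged from 1056 to 1098 normalized counts in DPP4_pos cells, above its 837 to 921 in DPP4_neg cells. Cd46 averaged 22.4 against 10.4 in the same order. It reached the filter through the DPP4_pos libraries alone, so its higher value there is not independent of the filter.

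For comparison, 12 markers of committed preadipocytes had 7 members higher and 5 lower in DPP4_pos vehicle libraries, beside 31.6% of all genes higher and 35% lower, with a median of 0.35 against -0.01. Among the higher were Dlk1 (1.35 ± 0.27), a surface protein of preadipocytes, Ggt5 (0.76 ± 0.06), Col15a1 (0.64 ± 0.04), Plin2 (0.58 ± 0.07), which coats lipid droplets, and Lpl (0.45 ± 0.06), lipoprotein lipase. Among the lower were Fabp4 (-1.55 ± 0.08), Cd36 (-1.53 ± 0.06) and Pparg (-0.86 ± 0.05), a fatty acid binding protein, a fatty acid transporter and the master regulator of fat cell formation. With isoproterenol, 4 rose and 7 fell in DPP4_neg and 3 rose and 7 fell in DPP4_pos cells, beside 32.1% and 33.6%, and 39.4% and 43.3%, of all genes. Pparg fell by 0.50 ± 0.05 and by 1.23 ± 0.05, while the basement membrane collagens Col4a1 and Col4a2 rose by 0.91 ± 0.03 and 0.67 ± 0.03 in DPP4_neg and by 0.88 ± 0.03 and 0.59 ± 0.03 in DPP4_pos cells. Of 8 markers of CD142-positive progenitors, 4 were higher and 3 lower in DPP4_pos vehicle libraries, 3 rose and 4 fell with isoproterenol in DPP4_neg cells, and 1 rose and 5 fell in DPP4_pos cells, to be read against the same shares of all genes. F3, the gene of CD142 itself, was lower in DPP4_pos vehicle libraries (-1.03 ± 0.05) and fell with isoproterenol by 1.96 ± 0.05 in DPP4_neg and by 1.80 ± 0.05 in DPP4_pos cells. Mgp, a matrix protein that inhibits calcification, and Fmo2, a monooxygenase, were higher in DPP4_pos vehicle libraries (2.06 ± 0.05 and 2.04 ± 0.10), and Mgp rose with isoproterenol by 2.69 ± 0.05 and 1.41 ± 0.05. Meox2 and Bgn were lower in DPP4_pos vehicle libraries (-1.15 and -0.54), the latter not called with quantile scaling. The largest responses of the list in DPP4_pos cells were falls, those of Meox2 (-3.14) and Cygb (-2.198). Both genes also fell in DPP4_neg cells.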

How the data were processed

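The submitters' processing notes list DESeq2 1.6.3, featureCounts 1.4.6, HISAT2 2.0.1 and Trim Galore 0.4.1, and the builds GRCm38 and mm10. Settings and gene models are not known from the notes. Per the labels' protocols, libraries were made from 500 ng of total RNA. The deposited table holds a normalized signal, the authors' read counts divided by a size factor per library. Dividing by the value of 1 read gave whole reads for 100.0% of 280334 values above 0, within 0.001. Depth in reads per library was 9823799 to 16563940 for DPP4_pos isoproterenol, 17189166 to 20425332 for DPP4_pos vehicle, 10191846 to 22121496 for DPP4_neg isoproterenol and 16479650 to 28627223 for DPP4_neg vehicle. The less deep the library, the larger the counting error of low genes such as Dpp4 and Pi16 in DPP4_neg cells. Entries without a symbol numbered 958, with 0.093% of normalized counts.

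Groups were taken from the labels. The test was limma 3.58.1 with a mean-variance trend (R 4.3.3) on log2(normalized count + 1), with 4 group means over 16 libraries, genes of at least 10 in at least 4 libraries, and Benjamini-Hochberg adjustment at 0.05. In a test on simulated data for the isoproterenol response in DPP4_neg cells, 190 of 200 changed genes among 14005 were recovered, with 4 false calls. The simulation left low genes unchanged and gave every gene the same dispersion. In the data 65.7% of genes were called in this comparison, so the simulated rates need not hold for them. Alternatives were a pseudocount of 4 or 0.5, no filter, a mean of at least 50, quantile and TMM scaling, scaling to the total (added after the data were seen), edgeR 4.0.16 quasi-likelihood and DESeq2 1.42.0 on the recovered reads, no trend, only the compared groups, a replicate block, and leaving out each library. Positions came from RefSeq and overlapping exons from GENCODE vM21, both on GRCm38. Of the other lists, up to 6 called genes per list and comparison with the largest differences and a mean of at least 50, or genes needed to explain a count, are named, and some partners were chosen after their values were seen. The markers and lists were chosen with earlier results of these data known.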

Additional observations from a re-analysis of the deposited data

Results flagged for a closer look

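In the DPP4_pos vehicle group, replicate 1 had the highest Il13ra1, at 1322 normalized counts, while the other 3 libraries lay between 1206 and 1210. The gap to the nearest library exceeded Dixon's 95% critical value. This was 1 of 40 combinations of marker and group examined, and chance flags about 1 in 20.

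The isoproterenol response differed between the populations for 8 markers by the interaction term of limma. The differences, DPP4_pos minus DPP4_neg, were 0.56 for Dpp4, -1.5 for Pi16, 0.46 for Cd55, -1.29 for Cd34, -0.28 for Pcolce2, 0.58 for Anxa3, 0.74 for Il13ra1 and 0.92 for Sema3c on the log2 scale. Those of Pi16, Cd34, Pcolce2, Anxa3, Il13ra1 and Sema3c were called under every alternative in which they could be fitted, and those of Dpp4 and Cd55 were not.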

How the results depend on the processing

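The numbers of markers called stayed at 9 to 10 (response in DPP4_neg), 10 (response in DPP4_pos), 7 to 8 (difference of responses), 9 (populations under vehicle), 8 to 9 (populations under isoproterenol) and 8 to 9 (DPP4_neg isoproterenol against DPP4_pos vehicle) under every alternative run. Genes called in all ranged from 0.85 to 1.1 times the main number. The Clec3b difference of responses changed sign with a pseudocount of 4 (-0.0139), quantile (-0.475), TMM (-0.0192) and total scaling (-0.229), and without DPP4_neg vehicle replicate 3 (-0.0915), DPP4_neg isoproterenol replicate 4 (-0.0261), and DPP4_pos isoproterenol replicate 2 (-0.0103) or 3 (-0.0083). Over all single libraries left out it ran from -0.0915 to 0.1209. The cause was not tested. Samples with the same replicate number did not deviate together (r of -0.23 to 0.13 over 24 pairs, 1 over 0.1, and own number best in 15 of 48 cases), so the numbers were not taken as pairs. A replicate block gave 9, 10, 8, 9, 9 and 9 markers called in the 6 comparisons, and 11612 genes called in the DPP4_pos response against 11581 without it. Depth limits Dpp4 and Pi16 in DPP4_neg cells, with 39 and 45 reads in their lowest groups. The difference of responses was not fitted with only the compared groups, since it uses all 4.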
